A study of Mus musculus with 2 samples.

Results

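Dermal fibroblasts with little or no *Coch* transcript were described in 1 single-cell library of mouse skin under imiquimod, a Toll-like receptor agonist that brings on psoriasis-like inflammation. These cells were chosen by measured values from the dermal library. A cell was kept when it held 200 to 5000 genes and at most 10% mitochondrial transcripts, when its summed *Col1a2*, *Pdgfra*, *Dcn* and *Lum* reached 20 per 10000 of the cell's UMIs (unique molecular identifiers, the tags by which captured transcripts are counted), and when the summed C1q genes and the summed *Krt5* and *Krt14* each stayed under 20 per 10000. Such a fibroblast was Coch-negative with 0 or 1 *Coch* UMI and Coch-positive with 2 or more. Of 5376 dermal cell barcodes, 4721 were within the limits on genes and mitochondria, 404 were fibroblasts, and 235 of these were Coch-negative (58.2%, exact 95% interval 53.2 to 63.0%), which is 4.98% of the dermal cells within the limits. Both libraries of the series together held 10634 cells.

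Dermis and epidermis came from wild-type C57BL/6 mice given imiquimod for 5 days, and each layer was made into 1 library of 3′ transcript ends. The labels give an age of 10 weeks, name the ear as the treated site and state that dead cells were sorted out. The study itself gives a younger age in its methods, draws the back as the skin taken, and describe a sort of dermal cells carrying CD45, the leukocyte marker that *Ptprc* encodes. *Ptprc* was found in 30.2% of the Coch-negative fibroblasts (24.4 to 36.5%) and in 66.8% of the other dermal cells. Whether a member carried CD45 or came through the sort without it cannot be told apart from these counts. Untreated skin was not analysed here and each layer had 1 library, so no effect of imiquimod can be read here, cells are not replicates, and no comparison carries a p-value. Intervals are exact, at 95%, and take in the error of counting alone, and the number of mice behind the library is not given in the sources used here.

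Fibroblasts build the dermal matrix of collagens, small leucine-rich proteoglycans and elastic fibres. Those under the epidermis are called papillary and those in the deeper dermis reticular, and the fibroblasts around vessels adventitial. In inflamed skin, fibroblasts also release chemokines, serum amyloid A and matrix-cleaving enzymes in answer to cytokines. *Coch* encodes cochlin and *Tnc* encodes tenascin C, both secreted proteins of the extracellular matrix. *Coch* (ENSMUSG00000020953) lies on chromosome 12 from 51593341 to 51605771, and *Tnc* (ENSMUSG00000028364) on chromosome 4 from 63959785 to 64047015, on GRCm38.

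The Coch-negative fibroblasts held 2579738 UMIs, with a median of 10052 per cell (518 to 37024) and 2427 genes, against a median of 9374 UMIs and 2457 genes in the 169 Coch-positive fibroblasts. Depth also bears on a limit of 1 UMI. Of the Coch-negative cells 26 had under 1000 UMIs, and of the Coch-positive cells 4. No *Coch* UMI was found in 185 members and 1 UMI in 50, while 20 fibroblasts just outside the limit had 2 UMIs, 12 had 3, and 100 had 10 or more, up to 346. One UMI was also what other cells carried, and 17 of 847 C1q-high macrophages held 2 or more. A *Coch* UMI was found in 21.3% of the members (16.2 to 27.1%, median 10052 UMIs) and in 18.1% of the C1q-high macrophages (15.5 to 20.8%, median 9236 UMIs), a cell type that should lack the gene. With each cell thinned to 1000 UMIs, the shares were 2.39% of 209 members (0.781 to 5.49%) and 2.89% of 831 macrophages (1.86 to 4.27%). Since the rule itself caps *Coch* at 1 UMI, these shares are a description of the members only. The summed fibroblast genes of the members began at 20.4 per 10000, with 19.9 the highest value left outside, and the C1q sum reached 18.9 inside and began at 20.9 outside. The C1q limit removed 12 cells and the keratin limit 0.

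**Figure D1:**
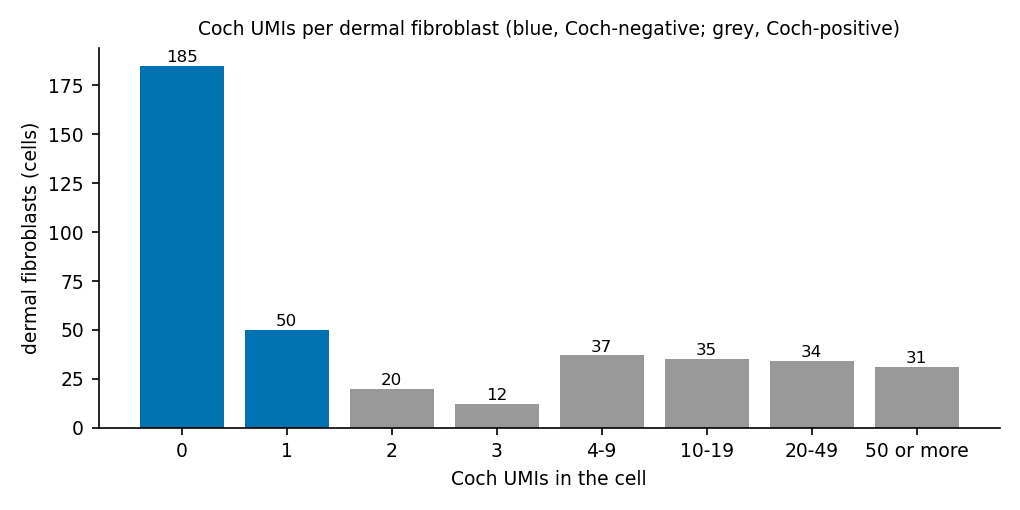
Number of dermal fibroblasts (vertical axis, cells) by the number of Coch UMIs in the cell (horizontal axis); blue bars are Coch-negative and grey bars Coch-positive. The 185 cells at 0 are the largest bar, and the 20 cells at 2 UMIs lie just past the limit that chose the 235 Coch-negative cells.

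The label of fibroblasts held for markers the limits did not use. Against the other 4317 dermal cells, the summed UMIs of the members were compared as counts scaled to equal totals (CPM, per 1000000 UMIs), and a gene was called apart at a ratio of at least 2 or at most 0.5 (pseudocount 0.5 UMI). These other cells leave out the Coch-positive fibroblasts, so a ratio to them does not set the members apart from fibroblasts in general. All 12 fibroblast identity genes outside the limits passed the minimum of 20 UMIs and all 12 were higher in the members, where 20.1% of all 13019 genes were 2-fold higher and 15.5% were 2-fold lower. *Col1a1* stood at 1285 CPM in the members and 14.3 CPM in the other dermal cells, and *Col3a1* at 2473 against 40.1 CPM. Both encode chains of the main fibrillar collagens of skin. *Sparc*, a secreted matrix-binding glycoprotein among the 15 most abundant genes, stood at 3531 against 114 CPM. The genes of the limits are given as a description. *Dcn*, the proteoglycan decorin, stood at 10703 CPM and was found in 99.1% of members, *Col1a2* at 1780 CPM in 87.7%, *Lum*, lumican, at 1546 CPM in 82.1%, and *Pdgfra*, the platelet-derived growth factor receptor that marks the lineage, at 184 CPM in 57%.

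Markers of other structural cells were low but not all absent. The 10 endothelial markers summed to 14.3 CPM in the members and 88.8 CPM in the other dermal cells, with *Pecam1* the most abundant at 9 UMIs. The 10 pericyte and smooth muscle markers summed to 93.8 against 11.5 CPM, with 3 of 7 tested 2-fold higher and 3 lower (median log2 ratio -0.66), and most of the sum was *Pdgfrb*, a receptor that fibroblasts share, at 79.5 CPM. Of the defining pericyte gene *Rgs5* there were 2 UMIs. The 10 Schwann cell and melanocyte markers summed to 42.3 against 42.4 CPM, with 191 CPM in the cells described below as group 3, and *Sox10* had 5 UMIs. The rule itself kept *Krt5* and *Krt14* low. Leukocyte transcripts were not absent. The 8 pan-leukocyte markers summed to 3381 CPM in the members, 4691 CPM in the Coch-positive fibroblasts and 12682 CPM in the other dermal cells, with *Tyrobp* the most abundant at 1079 CPM in the members. The neutrophil calprotectin genes *S100a8* and *S100a9*, at 5618 and 4628 CPM, were among the 15 most abundant genes. The highest of that rank were *Fth1*, the ferritin heavy chain, at 25226 CPM and *Saa3*, serum amyloid A3, at 20860 CPM.

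Among genes with at least 100 UMIs, found in at least 10% of the cells of the higher side, the 12 largest ratios to the other dermal cells included *Cxcl5*, *Ccl19*, *Eln* and *Clec3b*. *Cxcl5*, a chemokine for neutrophils, stood at 1068 CPM in the members and 10.1 CPM in the other cells, a ratio of 105 (94.3 to 118). *Ccl19*, which draws lymphocytes and dendritic cells through CCR7, stood at 413 against 4.01 CPM, a ratio of 103 (86.4 to 124), and a *Ccl19* UMI was found in 53.6% of the members. It was also found in 62.1% of the Coch-positive fibroblasts, and its log2 ratio of Coch-negative to Coch-positive cells was 0.25. *Eln*, the elastin gene, stood at 599 against 6.81 CPM, a ratio of 88.0 (76.7 to 101), but 882 of its 1546 UMIs lay in 1 member, without which the members were at 260 CPM and the log2 ratio went from 6.46 to 5.24. *Clec3b*, which encodes the plasminogen-binding protein tetranectin, stood at 59.7 against 0.515 CPM. The others were *CR974586.5*, *Col8a1*, *Cilp*, *Itgbl1*, *Comp*, *Myoc*, *Igfbp2* and *Col1a1*. The C1q limit selects against macrophages, and the 12 smallest ratios held macrophage genes, with *Pf4*, a platelet and macrophage chemokine, at 175 against 1707 CPM and *Ms4a7*, a macrophage membrane gene, at 22.9 against 215 CPM.

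The members were not of 1 kind. Clustered on their own they fell into 3 groups of 129, 73 and 33 cells, described here by their leading genes and without tests, since the same genes formed the groups. Leading genes had the largest ratios to the other members, with at least 50 UMIs. Group 1, of 129 cells, was led by *Cxcl5*, *Ptx3*, *Saa2*, *Reg3g*, *Cyp7b1*, *Rarres2* and *Il19*, among them acute phase and antimicrobial genes and a cytokine of the interleukin 10 family. One cell held 49.3% of the *Ptx3* UMIs of the group, and without it *Ptx3* fell from 416 to 216 CPM. The richest cell held 32.8% of the UMIs for *Reg3g* and 30.9% for *Saa2*. *Saa3* stood at 35386 CPM in group 1, 11765 in group 2 and 412 in group 3. *Cxcl5* stood at 2120, 159 and 100 CPM in the same order. *Mmp3*, stromelysin 1, stood at 2091, 825 and 162 CPM, its inhibitor *Timp1* at 3878, 1522 and 574 CPM, and *Cxcl12*, the ligand of CXCR4, at 1009, 170 and 345 CPM. Without the richest cell of each gene, group 3 was at 32.6 CPM for *Cxcl5*, 97 for *Mmp3*, 259 for *Timp1* and 197 for *Cxcl12*. Group 1 was thus the highest of the 3 for each of these 5 genes. *Ptprc* was found in 10.9% of its cells (6.06 to 17.5%), and its median depth was 8097 UMIs.

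Group 2, of 73 cells, was led by genes of leukocytes, with *Stfa2l1*, *Fpr2*, *Retnlg* and *S100a8* of neutrophils and *Il17f* of type 17 lymphocytes among the 12 leading genes, although 84.6% of the *Il17f* UMIs of the group lay in 1 cell. *S100a8* stood at 14207 CPM in group 2, 839 in group 1 and 877 in group 3. *Cd74*, the invariant chain of MHC class II, stood at 4008, 300 and 258 CPM. *Ptprc* was found in 64.4% of the group 2 cells (52.3 to 75.3%), close to the 66.7% of the C1q-high macrophages, and the median rate of pan-leukocyte markers was 76.4 per 10000 against 10.9 in group 1 and 9.79 in group 3. The same cells held fibroblast genes at a lower rate, with a median sum of 75.3 per 10000 against 153 and 132, and *Col3a1* at 1694 CPM against 3065 and 2475. One cell held 45% of the *Col3a1* UMIs of group 3. Without the richest cell of each group *Col3a1* was at 1578 CPM in group 2, 2959 in group 1 and 1430 in group 3, so its order between groups 2 and 3 turned. The median depth of group 2 was 12863 UMIs. Of the 209 dermal cells with the highest doublet scores from Scrublet, 17 were in group 2, 2 in group 1 and 3 in group 3. That was 23.3% of group 2, 1.55% of group 1 and 9.09% of group 3. Of all members 9.36% were among these 209 cells, and of the Coch-positive fibroblasts 15.4%. The part of leukocyte transcripts, from doublets or from free RNA, in the results for group 2 was not tested.

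Group 3, of 33 cells, was led by genes known from cartilage and from tendon-like matrix. *Mia*, *Ucma*, *Cnmd*, *Cytl1*, *Chad* and *Comp*, genes of the cartilage matrix or of chondrocyte secretion, were among its 12 leading genes, with *Angptl7* and *Chil1*. Without its richest cell in the group, *Cnmd* fell from 174 to 80.3 CPM and *Angptl7* from 1251 to 637 CPM. *Chil1*, chitinase-like protein 1, stood at 12039 CPM in group 3 against 48.8 in group 1 and 46.7 in group 2. *Mgp*, matrix Gla protein, an inhibitor of calcification, stood at 5632, 201 and 32.6 CPM, and *Eln* at 2724, 184 and 109 CPM. One cell held 72.1% of the *Eln* UMIs of group 3, and without it the level there was 799 CPM, while *Mgp* without its richest cell was at 5094 CPM. *Sox9*, the transcription factor that directs cartilage formation, was found in 72.7% of group 3 cells (196 CPM) and in 4.65% of group 1 cells (6.62 CPM). *Col2a1* and *Acan*, the main collagen and proteoglycan of hyaline cartilage, were low even there, at 60.1 and 64.5 CPM in 15.2% of the cells each, with 21 of the 27 *Col2a1* UMIs in 1 cell. *Dcn* stood at 11549 CPM in group 3, against 13281 CPM in group 1, and *Pdgfra* at 42.3 against 270 CPM. Immediate early genes were also high in group 3, with *Fos* at 3213 CPM against 207 in group 1 and *Klf2* at 2499 against 75.3 CPM. One cell held 38.9% of the *Klf2* UMIs of group 3, and without it the level there was 1608 CPM. The cartilage genes were listed only after these values had been seen, so the group carries no cell type name. The labels name the ear and the study draws the back, and cartilage as a source was not tested.

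**Figure D2:**
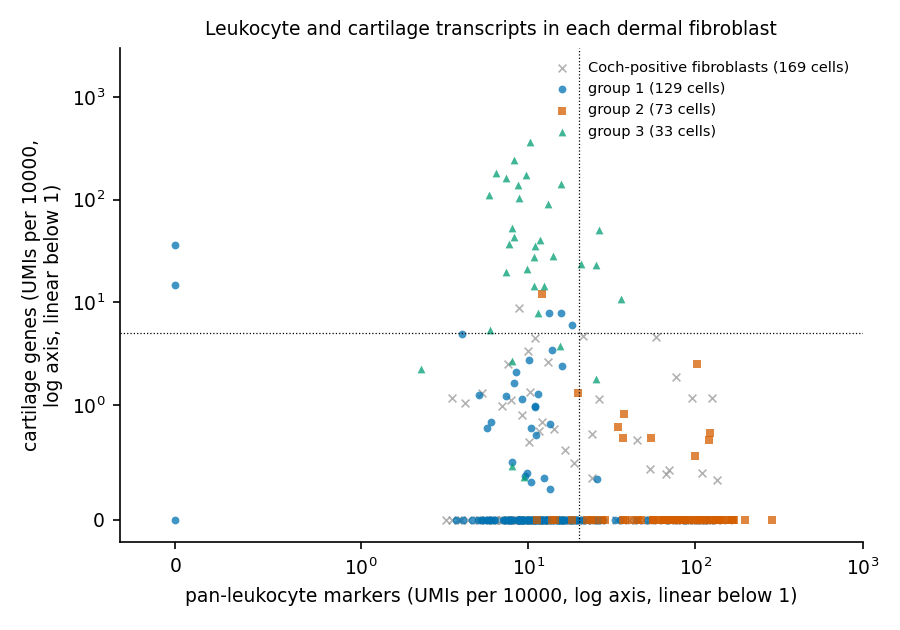
Each point is 1 dermal fibroblast, placed by its pan-leukocyte marker UMIs per 10000 (horizontal) and its cartilage gene UMIs per 10000 (vertical), both on log axes that are linear below 1; dotted lines mark 20 and 5 per 10000. Group 3 (green triangles) lies mostly above 5 on the vertical axis, group 2 (orange squares) mostly right of 20 on the horizontal axis, and the Coch-positive cells (grey crosses) spread over the range of groups 1 and 2.

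**Figure D3:**
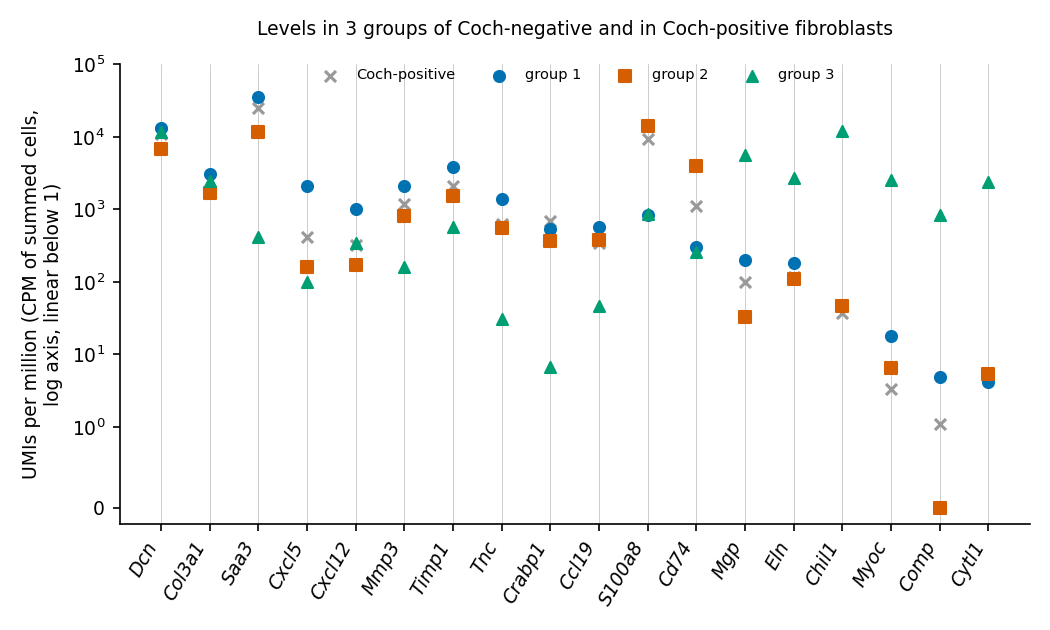
CPM of the summed cells (vertical, log axis, linear below 1) of 18 genes (horizontal) in the Coch-positive fibroblasts (grey crosses) and in groups 1, 2 and 3 of the Coch-negative fibroblasts. Saa3, Cxcl5, Mmp3 and Tnc are highest in group 1, S100a8 and Cd74 in group 2, and Mgp, Eln, Chil1, Myoc, Comp and Cytl1 in group 3.

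*Tnc* was found in both kinds of fibroblast. Of the Coch-negative fibroblasts 58.7% held a *Tnc* UMI (52.1 to 65.1%), against 70.4% of the Coch-positive (62.9 to 77.2%) and 12.2% of the C1q-high macrophages (10.0 to 14.6%). By summed UMIs the order was the other way, with 2222 *Tnc* UMIs and 861 CPM in the Coch-negative cells and 1154 UMIs and 639 CPM in the Coch-positive cells, a ratio of 1.35 (1.26 to 1.45). With each cell thinned to 1000 UMIs the shares were 35.9% of the Coch-negative cells (29.4 to 42.8%) and 32.1% of the Coch-positive cells (25.1 to 39.8%), against 1.93% of the macrophages (1.10 to 3.11%). The intervals of both kinds of fibroblast overlapped, and both lay above the background of the macrophages. The shares as counted ran against the CPM and the thinned shares ran with it, so no order is read from the shares. Within the Coch-negative cells *Tnc* was uneven, with 1397 CPM in group 1, 563 in group 2 and 31.2 in group 3. In group 3 it was found in 18.2% of the cells (6.98 to 35.5%), an interval that holds the value of the macrophages, and after thinning in 0 of 32 cells, which allows a share of up to 9.38% by a limit of 3 counts and 10.9% by the exact interval.

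**Figure D4:**
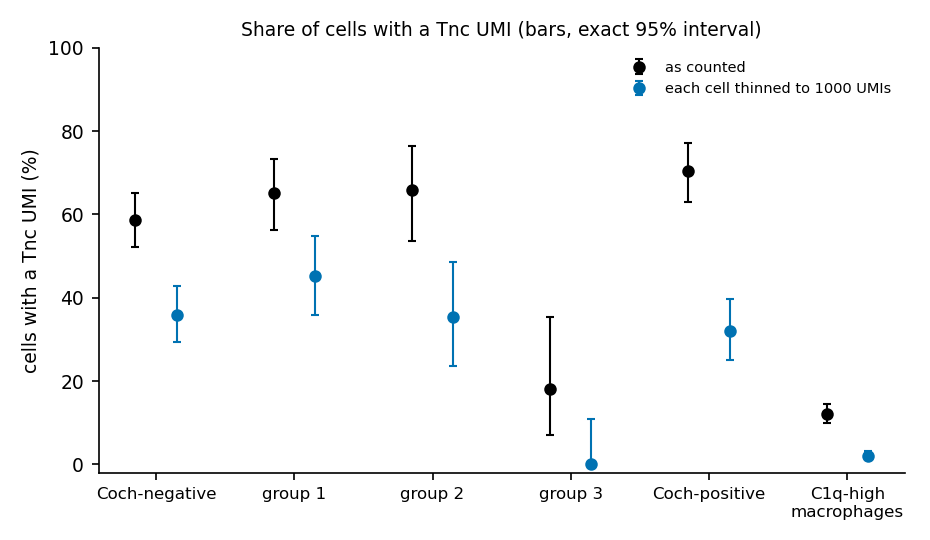
Share of cells with a Tnc UMI (vertical, percent) in the Coch-negative fibroblasts, their 3 groups, the Coch-positive fibroblasts and the C1q-high macrophages as background; black points are as counted, blue points after thinning each cell to 1000 UMIs, and bars are exact 95% intervals. As counted, the Coch-negative cells are at 58.7% and the Coch-positive at 70.4%, and after thinning at 35.9% and 32.1%.

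Of 9506 genes with at least 20 UMIs over both kinds of fibroblast, leaving out *Coch* and the other genes of the rule, 435 (4.58%) were at least 2-fold higher in the Coch-negative and 219 (2.3%) at least 2-fold lower. Under the same minimum of 100 UMIs and 10% of cells, the 12 largest ratios were *Myoc*, *Comp*, *Cytl1*, *Ptgis*, *Chil1*, *Clu*, *Col8a1*, *Ctgf*, *Mgp*, *Penk*, *Ptn* and *Trf*. All 12 were highest in group 3 among the groups. *Myoc*, myocilin, a secreted glycoprotein, stood at 461 CPM in the Coch-negative cells and 3.32 CPM in the Coch-positive cells, a ratio of 139 (63.6 to 379), and was found in 18.7% of the former and 3.55% of the latter. *Chil1* stood at 2137 against 37.6 CPM, a ratio of 56.8 (44.7 to 73.2). *Comp*, cartilage oligomeric matrix protein, was at 830 CPM in group 3 and 0 in group 2. *Ctgf*, the matricellular connective tissue growth factor, stood at 234 against 14.9 CPM, a ratio of 15.7 (10.7 to 24.0). Of the 435 higher genes, 324 (74.5%) had their highest CPM in the 33 cells of group 3, as did 51.4% of all 9506 genes and 60 (27.4%) of the 219 lower genes. *Sox9* had 96 UMIs in the Coch-negative and 0 in the Coch-positive cells, at least 22.4-fold higher when the latter are set to 3 counts over the group.

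That difference also hung on the cells with 1 *Coch* UMI. Group 3 held 12 of those 50 cells, 36.4% of its own cells (20.4 to 54.9%) and 12.5% after thinning (3.51 to 29.0%). With the limit set to 0 *Coch* UMIs, which moves the 50 cells to the Coch-positive side, 241 genes were higher, the log2 ratio of *Chil1* went from 5.82 to 0.52 and that of *Mgp* from 3.46 to 0.64. *Col8a1*, a short-chain collagen, *Igfbp2*, which binds insulin-like growth factors, and *Thbs1*, thrombospondin 1, changed sign, to log2 ratios of -0.88, -0.20 and -0.71.

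The comparison was therefore repeated, by a choice made after seeing the data, without the fibroblasts that held 20 or more pan-leukocyte UMIs per 10000 or 5 or more UMIs per 10000 of 17 cartilage genes. The first removed 88 Coch-negative and 70 Coch-positive cells, the second 33 and 1 cells, and 118 Coch-negative and 98 Coch-positive cells were left. Of these 118 cells 108 were from group 1 and 5 each from groups 2 and 3. In this restricted comparison 219 of 6955 genes (3.15%) were at least 2-fold higher and 262 (3.77%) at least 2-fold lower. Of the 435 genes higher with all cells 124 (28.5%) were also higher here, and of the 219 lower genes 61 (27.9%) were also lower. Both shares are of all genes called with all cells, so a gene under 20 UMIs in the restricted cells counts as not called again. With the richest cell of each gene left out as well, 126 genes were higher and 286 lower. One group 3 cell held 747 of the 875 *Chil1* UMIs of the restricted members, and without it the log2 ratio of *Chil1* was 3.12. One member held 78.5% of their *Eln* UMIs, and without it the log2 ratio of *Eln* was 0.27.

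**Figure D5:**
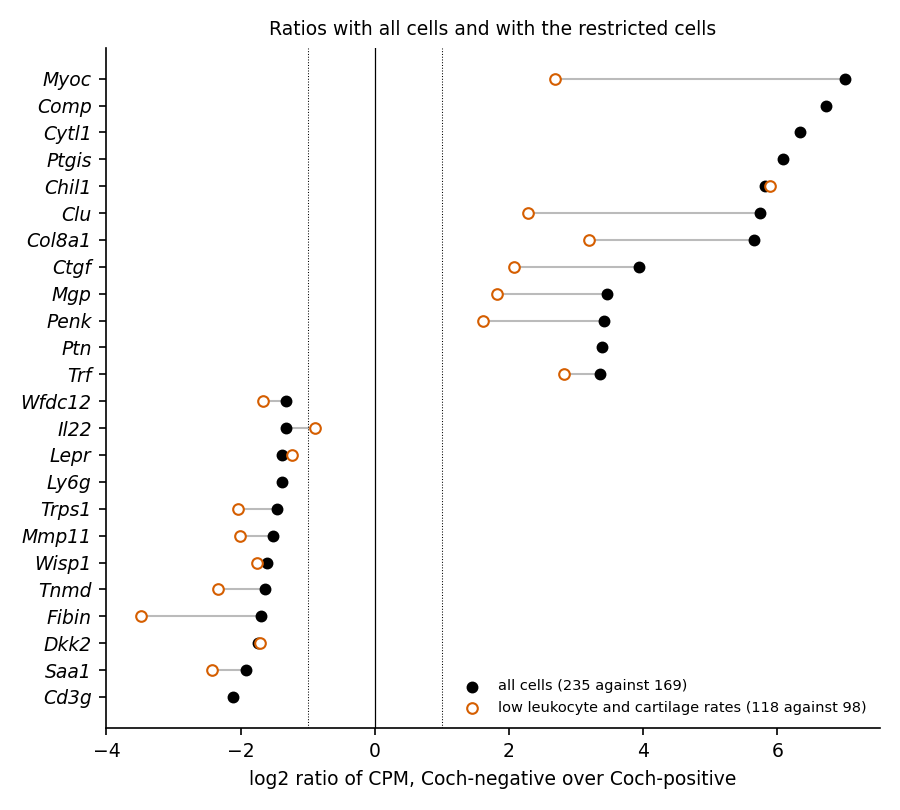
Log2 ratio of CPM, Coch-negative over Coch-positive fibroblasts (horizontal), for the 12 largest and 12 smallest ratios (vertical, each gene a row); black points are all cells and open orange points the cells with low leukocyte and cartilage rates. Comp and Cytl1, which are among the 17 cartilage genes that define the restriction, were at 6.73 and 6.34 with all cells and, like 4 other genes, have no open point because they fell under 20 UMIs. Dkk2 was at -1.71 in the restricted cells, and Chil1 at 5.89 with 85.4% of its UMIs there in 1 member.

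*Cxcl14*, a chemokine of resting skin, stood at 1376 CPM in the Coch-negative cells and 171 CPM in the Coch-positive cells, a ratio of 8.04 (7.16 to 9.06), and at 1373 against 246 CPM in the restricted cells. It was found in 57.4% of the former and 38.5% of the latter. *Cxcl5* stood at 1068 against 419 CPM, a ratio of 2.55 (2.35 to 2.77), with 55% of its UMIs in 5 cells, and its log2 ratio was 1.60 in the restricted cells and 0.42 with the limit at 0 *Coch* UMIs. *Il33*, an alarmin of the interleukin 1 family, stood at 60.9 against 15.5 CPM, a ratio of 3.93 (2.61 to 6.10), and *Fgf7*, the keratinocyte growth factor, at 92.6 against 30.4 CPM, a ratio of 3.04 (2.26 to 4.16). In the restricted cells *Il33* stood at 94.7 against 30.2 CPM and *Fgf7* at 109 against 49.2 CPM. *Eln* stood at 599 against 117 CPM, but 73.9% of its UMIs lay in 5 cells, and without the richest cell its log2 ratio fell from 2.36 to 1.14. *Fn1*, fibronectin, was spread more widely, at 233 against 94.1 CPM and in 63.0% against 39.6% of the cells, and at 255 against 91.7 CPM in the restricted cells.

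The 12 smallest ratios were *Cd3g*, *Saa1*, *Dkk2*, *Fibin*, *Tnmd*, *Wisp1*, *Mmp11*, *Trps1*, *Ly6g*, *Lepr*, *Il22* and *Wfdc12*. *Dkk2*, a secreted modulator of WNT signalling, stood at 45.7 CPM in the Coch-negative cells and 153 CPM in the Coch-positive cells, 3.36-fold lower (2.69 to 4.19), and was found in 25.5% against 55% of the cells. Its level within the Coch-negative cells was 68.6 CPM in group 1, 38.0 in group 2 and 0 in group 3, and its log2 ratio was -1.74 with all cells and -1.71 in the restricted cells. *Mmp11*, stromelysin 3, stood at 31.4 against 90.2 CPM and *Trps1*, a zinc finger transcription factor, at 30.2 against 83.0 CPM. *Saa1* stood at 56.2 against 213 CPM. Its reads may be shared with the near-identical *Saa2*, which stood at 39.5 against 29.3 CPM, so the split between both is uncertain. *Cd3g*, *Ly6g* and *Il22* are genes of T cells, neutrophils and lymphocytes. The log2 ratio of *Cd3g* was -2.11 with all cells and 0.29 without the cells of the highest doublet scores. That of *Il22* was -1.32 with all cells, and 0.76 without its richest cell, 0.33 without the highest doublet scores, 0.42 with the fibroblast limit at 40 per 10000 and 1.73 with *Coch* limited by rate.

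The counts of called genes in the lists below stand beside 4.58% higher and 2.3% lower over all genes, with a median log2 ratio of -0.01, and in the restricted cells beside 3.15% and 3.77%. A single call in a list of 23 genes is near these shares and is no result about the list. Of 8 reticular and hypodermal genes with enough UMIs 4 were at least 2-fold higher in the Coch-negative cells and 0 lower, with a median of 0.55. They were *Mgp*, *Dlk1*, *Mfap5* and *Gpx3*. *Gpx3*, the secreted glutathione peroxidase, stood at 454 against 158 CPM, and *Dlk1*, a preadipocyte surface protein, at 25.2 against 3.88 CPM, with 67.7% of its UMIs in 5 cells. In the restricted cells 4 of 7 were higher and the median was 1.17, against -0.08 for all genes, with 44.8% of the *Mgp* UMIs in 1 member and a log2 ratio of *Mgp* of 0.96 without the richest cell. Of 13 papillary genes without *Coch* 0 were 2-fold higher and 1, *Trps1*, was lower, with a median of -0.33, and in the restricted cells 0 of 13 were higher and 2 lower. *Crabp1*, a retinoic acid-binding protein of the upper dermis, stood at 384 against 686 CPM. Of 12 adventitial genes 3 were higher, *Pcolce2*, *Ackr3* and *Sema3c*, and 1 was lower, against 2 and 2 of 10 in the restricted cells with a median of -0.06. The log2 ratio of *Sema3c* went from 2.09 to -0.05 with the limit at 0 *Coch* UMIs. The lower gene was *Pi16*, a peptidase inhibitor that marks adventitial fibroblasts, at 124 against 286 CPM and in 30.2% against 55% of the cells, 2.29-fold lower (1.99 to 2.65). Within the Coch-positive cells *Pi16* itself was uneven, with 82.4 CPM in the 69 cells of 2 to 9 *Coch* UMIs and 443 CPM in the 100 cells of 10 or more. Lists of dermal papilla (4 tested, 1 higher, 1 lower), sheath and myofibroblast (10, 2 and 2), and pericyte genes (2, 0 and 0) gave few or balanced calls. Of 4 nerve-associated fibroblast genes 3 were higher, among them *Sox9*, and 1 of 2 in the restricted cells. Against the other members 3 of the 4 were 2-fold higher in group 3 and 3 were lower in each of groups 1 and 2, beside 19.4% of all 7940 genes higher in group 3 and 14.1% and 12.5% lower in groups 1 and 2, with *Sox9* at 88 UMIs in group 3 and 0 in group 2.

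Of 35 matrix glycoproteins 12 were at least 2-fold higher and 0 lower (median 0.43). In the restricted cells 10 of 33 were higher and 2 lower, with a median of 0.20, with 78.5% of the *Eln* UMIs in 1 member and 54.6% of the *Thbs1* and 44.8% of the *Mgp* UMIs each in 1 member. The 12 included *Eln*, *Mgp*, *Fn1*, *Thbs1*, *Thbs4* and *Smoc2*. *Smoc2*, a calcium-binding matricellular protein, stood at 321 against 110 CPM and in 55.3% against 33.1% of the cells, a ratio of 2.93 (2.51 to 3.44). Of 8 fibrillar collagens outside the limits 2 were higher, *Col27a1* and *Col2a1*, both highest in group 3, and in the restricted cells 0 of 6 were higher and 1 lower. The log2 ratio of *Col2a1* was -1.18 with the limit at 0 *Coch* UMIs and that of *Col27a1* -0.29 with low cartilage genes. *Col3a1* stood at 2473 against 1669 CPM and *Col1a1* at 1285 against 1009 CPM. Of 13 other collagens 3 were higher and 0 lower, and of 12 in the restricted cells 1 was higher. Of 27 matrix proteases, inhibitors and crosslinkers 4 were higher and 1, *Mmp11*, was lower, while *Mmp3* stood at 1303 against 1190 CPM and *Timp1* at 2461 against 2102 CPM. Of 18 proteoglycans and hyaluronan genes 2 were higher and 0 lower with all cells, and of 14 in the restricted cells 0 were higher and 2 lower. *Fmod*, fibromodulin, stood at 126 against 190 CPM over all cells, 699 CPM in group 3, and 4.78 against 318 CPM in the restricted cells.

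Of 23 inflammatory response genes 1, *Mt2*, was at least 2-fold higher and 1, *Saa1*, was at least 2-fold lower, with a median of 0.07. *Saa3* stood at 20860 CPM in the Coch-negative and 24900 CPM in the Coch-positive cells, 1.19-fold lower (1.18 to 1.21), well within the range from 412 to 35386 CPM across the Coch-negative groups. *Lcn2*, lipocalin 2, an iron-chelating antimicrobial protein, stood at 1289 against 865 CPM. Of 23 interferon-stimulated genes 1 was higher, *Irf1*, and 3 were lower, with a median of -0.53, and of 19 in the restricted cells 0 were higher and 5 lower, with a median of -0.59. The log2 ratio of *Irf1* was 1.11 with all cells and -0.23 with low cartilage genes, and 38.2% of its UMIs lay in 1 member. *Isg15* stood at 33.7 against 73.6 CPM, 2.18-fold lower (1.65 to 2.89). *H2-K1* and *H2-D1*, MHC class I genes, stood at 305 against 458 CPM and 690 against 996 CPM. Of 11 complement genes 3 were higher and 0 lower, with a median of 0.26, and of 10 in the restricted cells 3 were higher and 1 lower. *C4b* stood at 101 against 33.8 CPM, a ratio of 3.0 (2.26 to 4.03). *C3* stood at 159 against 81.4 CPM.

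Chemokine transcripts were set beside those of the other dermal cells, where many are leukocyte products. Of 6 neutrophil chemokines 2 were 2-fold higher in the members than in the other dermal cells and 4 lower, with list sums of 2538 and 4223 CPM, and of 12 monocyte and eosinophil chemokines 3 were higher and 7 lower, with sums of 3624 and 5853 CPM. Of 11 lymphocyte and dendritic cell chemokines 3 were higher and 8 lower, while the sums ran the other way, at 1104 and 681 CPM. Over all genes these shares were 20.1% higher and 15.5% lower. Between both kinds of fibroblast, of 5 neutrophil chemokines 1, *Cxcl5*, was 2-fold higher and 0 lower, of 12 monocyte and eosinophil chemokines 3 were higher and 1 lower, and of 9 lymphocyte and dendritic cell chemokines 0 were higher and 2 lower. In the restricted cells the counts were, in the same order, 1 higher and 0 lower of 5, 1 and 0 of 11, and 0 and 1 of 6. *Cxcl1*, which draws neutrophils, stood at 234 CPM in the Coch-negative and 247 CPM in the Coch-positive cells, and at 37.6 CPM in the other dermal cells. *Ccl2*, a monocyte chemokine, stood at 269 against 354 CPM, and *Ccl7*, another, at 419 against 324 CPM, while the other dermal cells were at 302 and 387 CPM. *Ccl17*, a chemokine for T cells, stood at 4.65 against 95.8 CPM, but it was found in 4.68% of the Coch-negative and 2.37% of the Coch-positive cells, so few cells held nearly all of it. Of 16 cytokine and prostaglandin genes 4 were higher and 0 lower. *Il6* stood at 76.8 against 53.7 CPM, and *Tnfsf11*, which encodes RANKL, at 35.3 against 14.4 CPM in all cells and 50.1 against 12.3 CPM in the restricted cells. *Il1b*, mostly of leukocytes, stood at 542 against 871 CPM, and at 1254 CPM in group 2.

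The level of *Coch* within the fibroblasts was set beside those of other genes in steps. The 185 members with 0 *Coch* UMIs had a median depth of 8162 UMIs and the 50 with 1 UMI a median of 15601.5. *Tnc* stood at 857 CPM with 0 *Coch* UMIs, 870 with 1, 635 with 2 to 9 and 641 with 10 or more. *Dkk2* stood at 51.6, 32.6, 87.5 and 204 CPM over the same steps, and *Crabp1* at 382, 387, 515 and 819 CPM. *Saa3* stood at 23377, 15236, 32047 and 19364 CPM, with no order. *Pi16* stood at 117, 142, 82.4 and 443 CPM, and *Chil1* at 1552, 3442, 35.5 and 39.3 CPM. The levels of *Dkk2*, *Crabp1* and *Pi16* were thus highest in the 100 cells of 10 or more *Coch* UMIs, and those of *Tnc*, *Saa3* and *Chil1* were not. No test was made of these steps.

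Of 26 neurotrophic and axon guidance genes 3 were higher, *Ptn*, *Sema3c* and *Ntf3*, and 3 lower, *Gldn*, *Robo1* and *Robo2*, with a median of 0.02, and of 16 in the restricted cells 0 were higher and 2 lower. *Gldn*, gliomedin, which gathers sodium channels at nodes of Ranvier, stood at 34.1 against 81.9 CPM and in 18.3% against 44.4% of the cells. Of 19 WNT genes 4 were higher and 3 lower, of 28 TGF-beta and BMP genes 6 were higher and 0 lower, and of 22 growth factor genes 6 were higher and 0 lower. In the restricted cells the counts were 1 higher and 3 lower of 14 WNT genes, 3 and 2 of 24 TGF-beta and BMP genes with a median of -0.08, and 4 and 2 of 20 growth factor genes. Against the other members, 11 of 27 TGF-beta and BMP genes and 14 of 22 growth factor genes were 2-fold higher in the 33 cells of group 3, where 19.4% of all genes were. *Sfrp1*, a secreted WNT antagonist, stood at 39.5 against 6.64 CPM and in the restricted cells at 44.6 against 10.1 CPM. Of 25 cytokine receptors and adaptors 0 were higher and 3 lower. *Il1r1*, the receptor of interleukin 1, stood at 109 against 94.1 CPM. *Mki67*, a proliferation marker, was found in 5.11% of Coch-negative and 5.33% of Coch-positive cells, and in 14.2% of the macrophages. The share was 12.3% in group 2, 0.775% in group 1 and 6.06% in group 3, which differ in depth. With each cell thinned to 1000 UMIs it was 0.478% of Coch-negative cells, 1.21% of Coch-positive cells and 1.93% of macrophages. It was then found in 0 of 62 cells of group 2, 0 of 115 of group 1 and 0 of 32 of group 3, so no order of the groups is read.

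Leukocyte lists differed between both kinds of fibroblast as well, and their part in the ratios above was not tested beyond the restricted cells. In all 8 pan-leukocyte markers the Coch-negative cells were lower, but none by 2-fold, with a median log2 ratio of -0.46. The 8 neutrophil markers summed to 11829 CPM in the Coch-negative and 19706 CPM in the Coch-positive cells, and 1 was 2-fold lower. Of 8 T cell markers 5 were 2-fold lower, with sums of 119 and 280 CPM. In the restricted cells only 1 of these markers had enough UMIs, and it was not 2-fold apart. The log2 ratio of *Cd3g*, -2.11 with all cells, was 0.29 without the highest doublet scores. The 8 dendritic cell markers summed to 3734 and 2529 CPM, with *Cd74* the most abundant, and the 12 macrophage and monocyte markers to 1690 and 2323 CPM. The restricted cells were chosen by the pan-leukocyte markers themselves, so their levels there are set by that choice.

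*Mt1* and *Mt2* encode metallothioneins, small cysteine-rich proteins that bind zinc and copper, and both were lowest in group 2. *Mt1* stood at 8273 CPM in the Coch-negative and 5070 CPM in the Coch-positive cells, and *Mt2* at 7536 and 3259 CPM, a ratio of 2.31 (2.25 to 2.38). In groups 1, 2 and 3 *Mt1* stood at 10284, 5008 and 9553 CPM and *Mt2* at 8793, 3682 and 12054 CPM, so *Mt1* was highest in group 1 and *Mt2* in group 3. In the other dermal cells they stood at 747 and 224 CPM. The log2 ratios between both kinds of fibroblast were 0.65 for *Mt1* and 0.97 for *Mt2* in the restricted cells. The promoters of both are shown because these genes are switched on through metal response elements, and that of *Saa3* because this abundant transcript ranged from 412 to 35386 CPM across the groups. Each window runs from 250 bases before the RefSeq start to 50 after it on GRCm38.p6, at chr8:94178839-94179138 for *Mt1*, chr8:94172368-94172667 for *Mt2* (both on the plus strand) and chr7:46715627-46715926 for *Saa3* (minus strand), and capitals mark matches on either strand of the metal response core (TGCGCNC or TGCACNC) in *Mt1* and *Mt2*, and of the C/EBP-type motif TTGCNNAA in *Saa3*.
Mt1: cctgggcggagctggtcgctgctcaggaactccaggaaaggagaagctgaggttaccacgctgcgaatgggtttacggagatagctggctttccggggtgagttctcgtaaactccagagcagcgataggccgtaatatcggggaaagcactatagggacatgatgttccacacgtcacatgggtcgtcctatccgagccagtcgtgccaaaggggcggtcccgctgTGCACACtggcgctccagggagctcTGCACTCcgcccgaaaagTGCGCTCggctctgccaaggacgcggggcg
Mt2: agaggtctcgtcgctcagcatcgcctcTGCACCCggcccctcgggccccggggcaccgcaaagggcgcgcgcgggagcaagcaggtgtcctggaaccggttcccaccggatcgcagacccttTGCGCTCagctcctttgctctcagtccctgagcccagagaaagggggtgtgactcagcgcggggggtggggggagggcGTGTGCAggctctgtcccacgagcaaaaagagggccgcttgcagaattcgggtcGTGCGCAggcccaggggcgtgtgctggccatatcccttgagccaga
Saa3: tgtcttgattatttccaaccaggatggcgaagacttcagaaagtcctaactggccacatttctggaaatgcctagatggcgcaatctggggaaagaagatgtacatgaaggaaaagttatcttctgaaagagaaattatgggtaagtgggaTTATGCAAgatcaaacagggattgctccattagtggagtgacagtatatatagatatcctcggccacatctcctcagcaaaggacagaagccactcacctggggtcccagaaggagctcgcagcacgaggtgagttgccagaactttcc
The *Mt1* window held 3 matches and the *Mt2* window 4, none of them overlapping, and at least 3 such matches were found in 1.97% of all 32851 promoter windows, and at least 4 in 0.517%. Relative to the RefSeq start, the *Mt1* matches began at -23, 3 and 21 and the *Mt2* matches at -223, -128, -50 and 5. Those without a minus sign lie after the start. The *Saa3* window held 1 match of its motif, 99 bases before the start, as did 10.8% of all windows. A match is a run of letters and not a measured binding site.

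The epidermal library held no such cells. Of 3277 epidermal cells within the limits 3 reached the fibroblast limit, all 3 were over the keratin limit, and 0 met the rule, which by a limit of 3 counts allows a share of up to 0.0915%. *Coch* had 0 UMIs in the whole epidermal library, while *Dcn* had 435 and *Tnc* 605. The libraries shared 45 cell barcodes, of which 1 was a Coch-negative fibroblast.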

How the data were processed

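The authors deposited whole-number UMI counts per gene and cell barcode for each library. The libraries were built with 10x 3′ v3 chemistry, and the submitters' processing notes and file headers name Cell Ranger 3.0.2 and mm10. The files held 31053 genes. Members and gene lists were chosen with earlier results of these data known.

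Counts were summed over the cells of a set and given as CPM. Ratios used a pseudocount of 0.5 UMI and genes with at least 20 UMIs, and a ratio past 2-fold either way was called. With 1 library per tissue no test was possible. Intervals at 95% are exact (Poisson for ratios, Clopper-Pearson for shares), and zeros were set to 3 counts. Genes were named as the 12 largest and 12 smallest ratios at 100 UMIs and 10% of cells, the 15 most abundant, those of the rule, and up to 6 per list. Others were chosen after their values were seen. Leiden clustering (scanpy 1.11.5, 2000 variable genes, 20 components, 15 neighbours, resolution 0.5) gave the groups. Doublets stayed in, since Scrublet called 2 cells, and the 209 highest scores were left out as an alternative. Other alternatives changed the limits, pseudocount, minimum, depth and weighting. The ratio step was checked on simulated Poisson counts of whole groups, which hold no variation between cells, so the check does not cover genes uneven between cells. Versions were pandas 2.3.3, scipy 1.17.1, numpy 2.4.6 and Python 3.11.15. Positions came from a GENCODE annotation of GRCm38 and promoters from RefSeq. Some items are not reported here.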

Additional observations from a re-analysis of the deposited data

How the results depend on the processing

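No paired analysis was possible because neither layer was sampled more than once. The number of Coch-negative cells was 147 with low leukocyte markers and 118 with low cartilage genes too. Genes higher than in the Coch-positive cells numbered 435, and 241 with the limit at 0 *Coch* UMIs, 241 with low cartilage genes, 219 with both low, 126 with both low and without the richest cell per gene, 111 after thinning to 1000 UMIs, 196 at a minimum of 50 UMIs and 2438 with none. Lower genes numbered 219, and 525 by the mean over cells, 87 after thinning, 76 at 50 UMIs and 1504 with no minimum. Against other dermal cells 2617 were higher, 1642 after thinning and 6222 with no minimum, and 2013 were lower, 1340 at a pseudocount of 2. Members with a *Coch* UMI made up 21.3%, and 2.39% and 4.04% after thinning to 1000 and 2000 UMIs. Members with a *Tnc* UMI made up 58.7%, and 43.5% with the fibroblast limit at 10, 65.3% with low cartilage genes, 70.3% with both low, 35.9% and 50% after thinning, when the Coch-positive cells were at 32.1% and 48.2%. The *Tnc* log2 ratio of 0.43 was 0.15 with low leukocyte markers, 0.64 with low cartilage genes, and 0.32 and 0.31 after thinning. Clustering at resolution 1.0 gave 6 groups.

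Of 75 named genes past 2-fold between both kinds of fibroblast, 26 stayed past it in each of the 20 alternatives where they kept enough UMIs. A gene under the minimum in an alternative was not counted against it there. In at least 1 alternative 16 changed sign. With 0 *Coch* UMIs the log2 ratios were -1.47 for *Angptl7*, -1.18 for *Col2a1*, -0.88 for *Col8a1*, -0.20 for *Igfbp2*, -0.25 for *Ptx3*, -0.05 for *Sema3c* and -0.71 for *Thbs1*. With low cartilage genes they were -0.29 for *Col27a1*, -0.02 for *Cytl1*, -0.09 for *Fos*, -0.23 for *Irf1* and -0.81 for *Klf2*, which was at -0.45 with both low. With both low and without the richest cell per gene they were -0.12 for *Cilp*, -0.34 for *Dnajb1*, -0.08 for *Fos* and -0.55 for *Igfbp2*. *Il22* was at 1.73 with *Coch* limited by rate, 0.42 at a fibroblast limit of 40, 0.33 without the highest doublet scores and 0.76 without its richest cell, and *Cd3g* at 0.29 without the highest doublet scores. Against other dermal cells, with low cartilage genes, *Chad* was at -0.94, *Comp* at -0.38, *Cytl1* at -1.18 and *Trf* at -0.30, and with both low *Chad* was at -0.13 and *Cytl1* at -0.98. The cause was not tested, but leaving out cells by cartilage genes removes those genes by construction. Members under 1000 UMIs can miss low *Coch*, and 26 of 235 were so shallow.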

Other observations

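*Apod*, apolipoprotein D, stood at 2823 CPM in the Coch-negative and 1585 CPM in the Coch-positive cells, and at 3917 against 1960 CPM in the cells with few leukocyte and cartilage transcripts. *Lpl*, lipoprotein lipase, stood at 50.4 against 17.7 CPM, a ratio of 2.84 (1.92 to 4.33). Of 10 adipogenic and lipid genes 1 was 2-fold higher and 1, *Lepr*, the leptin receptor, was 2-fold lower, beside 4.58% and 2.3% of all genes. *Adh1*, an alcohol dehydrogenase that acts on retinol, stood at 25.6 against 4.98 CPM and was highest in group 1, at 41.3 CPM. Of 21 immediate early and heat shock genes 3 were higher, *Fos*, *Klf2* and *Dnajb1*, and in the cells with few leukocyte and cartilage transcripts 0 of 20 were 2-fold apart. *Hspa1a*, a heat shock protein 70 gene, stood at 2564 CPM in the Coch-negative cells, with 1040 CPM in group 1, 3982 in group 2 and 3758 in group 3.

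*Postn*, periostin, a matrix protein of activated fibroblasts, stood at 426 CPM in the Coch-negative and 727 CPM in the Coch-positive cells and was found in 54.9% against 82.8% of them. *Traf3ip3*, an adaptor that binds TRAF3, stood at 4.65 against 39.9 CPM and was found in 4.68% against 19.5% of the cells.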
